A study of Mus musculus with 15 samples.

Results

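The mitochondrially encoded transcripts were taken as the genes of the deposited expression table whose symbol starts with mt-. They were 13 of the 36144 genes in the table, and all 13 code for proteins. The annotation of the mouse mitochondrial chromosome (chromosome M) in GENCODE M21, on build GRCm38, lists 37 genes, of which 2 code for ribosomal RNA and 22 for transfer RNA. Those ribosomal and transfer RNA genes were not analysed here. RNA was measured in lumbar motor neurons (L1 to L3) of mice at postnatal day 6, traced with cholera toxin subunit B, cut out by laser-capture microdissection and sequenced as low-input poly(A) libraries. There were 15 libraries in 5 groups of 3, each a biological replicate by its labels, which do not say whether a replicate is 1 animal or a pool. All animals were on an FVB background and carried the human SMN2 and SMNdelta7 transgenes. WT mice were littermates with both mouse Smn alleles (Smn+/+;SMN2;SMNdelta7) given vehicle. SMA mice, a model of spinal muscular atrophy, lacked mouse Smn (Smn-/-;SMN2;SMNdelta7) and also received vehicle. The other groups were SMA mice of the same genotype injected intraperitoneally each day from postnatal day 0. MW150, which inhibits the stress kinase p38 alpha, was given at 5 mg/kg, and Pifithrin-alpha, which inhibits p53, at 2.2 mg/kg. SMN-C3, given at 3 mg/kg, shifts the splicing of the SMN2 transcript. Libraries are named by group and replicate number, as in WT 1.

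Mitochondrial DNA is transcribed on both strands into long precursors that span many genes. These are cut into single RNAs, largely at the transfer RNAs that lie between the coding regions, and most of the resulting messengers receive a short poly(A) tail. The proteins they encode are core subunits of the respiratory chain and of the ATP synthase, so every one of those complexes except complex II combines mitochondrial and nuclear products. Motor neurons, with long axons and high firing rates, depend heavily on this ATP supply. Each gene was described both by its level and by its share within the mt- sum, which sets the total apart from differences between genes.

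The sequence of these genes bears on the measurement in several ways. The table counts reads by sequence, and 7 of the 13 genes have a nuclear copy of at least 99% identity over at least 100 aligned bases. All 7 copies are annotated as unprocessed pseudogenes on the minus strand of chromosome 1, in a row from Gm28439 (bases 24611535 to 24612410) to Gm29216 (bases 24615706 to 24616197). Gm29216 matches the 3′ part of mt-Co1 and Gm28438 matches mt-Nd3. The stretches below hold every base at which these copies differ from the mt- gene over the length they share, with the differing bases in capitals. Numbering runs from the first base of the mt- gene.
mt-Co1, bases 1054 to 1096: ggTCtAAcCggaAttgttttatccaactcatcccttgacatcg
Gm29216, bases 1 to 43: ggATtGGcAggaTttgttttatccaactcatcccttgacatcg
mt-Nd3, bases 1 to 33: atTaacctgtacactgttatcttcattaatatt
Gm28438, bases 1 to 33: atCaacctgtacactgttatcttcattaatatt
The differences are T1056A, C1057T, A1059G, A1060G, C1062A and A1066T in Gm29216 and T3C in Gm28438. Beyond these bases a read could come from either locus by its sequence alone.

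Neighbouring genes also share bases with each other. The end of mt-Atp8 (bases 7766 to 7969 of chromosome M) is the start of mt-Atp6 (7927 to 8607), and the end of mt-Nd4l (9877 to 10173) is the start of mt-Nd4 (10167 to 11544). The shared bases are in capitals: 43 in the first pair and 7 in the second.
mt-Atp8, bases 142 to 204: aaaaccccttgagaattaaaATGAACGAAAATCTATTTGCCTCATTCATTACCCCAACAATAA
mt-Nd4l, bases 271 to 297: caaaatctcaacctactacaATGCTAA
In 3 genes the annotated length is not a multiple of 3 and the gene stops on the T of an incomplete stop codon, in capitals, which the poly(A) tail completes.
mt-Co3, bases 755 to 784: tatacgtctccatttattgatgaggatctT
mt-Nd4, bases 1349 to 1378: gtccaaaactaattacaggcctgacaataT
mt-Cytb, bases 1115 to 1144: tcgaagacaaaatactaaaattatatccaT
The plus strand of chromosome M in the annotation carries 12 of the genes, whose sequences are 5.88% to 16.1% G. The median was 25.3% G in 58784 nuclear protein-coding transcripts of the annotation, of which 0.437% were at or below 16.1%. The remaining gene, mt-Nd6 (bases 13552 to 14070), lies on the minus strand. It has 28.1% G and only 5.97% C, and its last 14 bases overlap the end of mt-Nd5 on the opposite strand.

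The libraries matched their labels at Smn1, which was at 8.97 to 23.3 TPM (transcripts per 1000000, a level corrected for transcript length) in the 3 WT libraries and at 0 to 1.5 TPM in the 12 Smn-/- libraries. Between 12311 and 14916 genes reached 1 TPM in a library. All 8 motor neuron markers were above 1 TPM in every library. Their sum was 1556 TPM in SMA+Pifithrin-alpha 3 and 1926 TPM in WT 1, against 2986 to 4432 TPM in the other 13. Markers of other cells were present too, with sums of 384 to 1043 TPM for 8 astrocyte genes, 444 to 5842 TPM for 9 oligodendrocyte lineage genes, 19.4 to 130 TPM for 9 microglia genes, 18.8 to 89.2 TPM for 6 vascular genes, 300.3 to 3544 TPM for 4 red blood cell genes and 2.18 to 17.7 TPM for 5 spinal interneuron genes. The vascular marker Cdh5 and the interneuron marker Pax2 were listed at 0 in some libraries. Only 5 of the 9 microglia, 2 of the 6 vascular and 1 of the 5 interneuron markers reached 1 TPM in all libraries, so these sums hold low values.

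The mitochondrially encoded transcripts together took between 3.76% and 21.9% of all TPM. In WT the mt- sum was 21.9%, 7.55% and 7.52% (12.3% ± 8.30, SD, n = 3). In SMA it was 3.76%, 7.15% and 5.88% (5.60% ± 1.72, SD, n = 3). All 3 SMA libraries lay below all 3 WT libraries, but the gap between 7.15% and 7.52% was narrow and the WT mean rested on WT 1.

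In SMA+MW150 the mt- sum was 7.52%, 5.68% and 5.99% (6.40% ± 0.988, SD, n = 3). In SMA+Pifithrin-alpha it was 5.78%, 12.6% and 20.4% (12.9% ± 7.32, SD, n = 3). In SMA+SMN-C3 it was 11.3%, 5.92% and 6.92% (8.05% ± 2.87, SD, n = 3). All 3 treated groups overlapped SMA, and the replicates of SMA+Pifithrin-alpha spanned almost the whole range of the study. No test was made of the sum, which is a score over chosen genes. The 2 libraries with the highest mt- sum, WT 1 and SMA+Pifithrin-alpha 3, were also the 2 with the lowest motor neuron marker sum. Their astrocyte sums (457.7 and 383.6 TPM, in that order) and microglia sums (19.4 and 24.8 TPM) were the 2 lowest as well. The oligodendrocyte lineage, vascular, red blood cell and interneuron sums did not share this pattern. The motor neuron marker Slc5a7 went the other way, with its 2 highest values in these libraries (303.7 and 222.4 TPM). The astrocyte marker Gja1 was highest of all libraries in WT 1 (97.8 TPM). Slc1a2 and Slc1a3 were not among their lowest there (31.8 and 36.5 TPM). The largest part of both astrocyte sums was S100b (203.7 and 233.1 TPM), at its 2 lowest values. The microglia marker P2ry12 in SMA+Pifithrin-alpha 3 (6.25 TPM) lay within the range of the other libraries. The part of these markers in the result was not tested. In these bulk samples, fewer mitochondrial transcripts and more nuclear ones per cell cannot be told apart, nor can either from a different mix of cells.

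**Figure D1:**
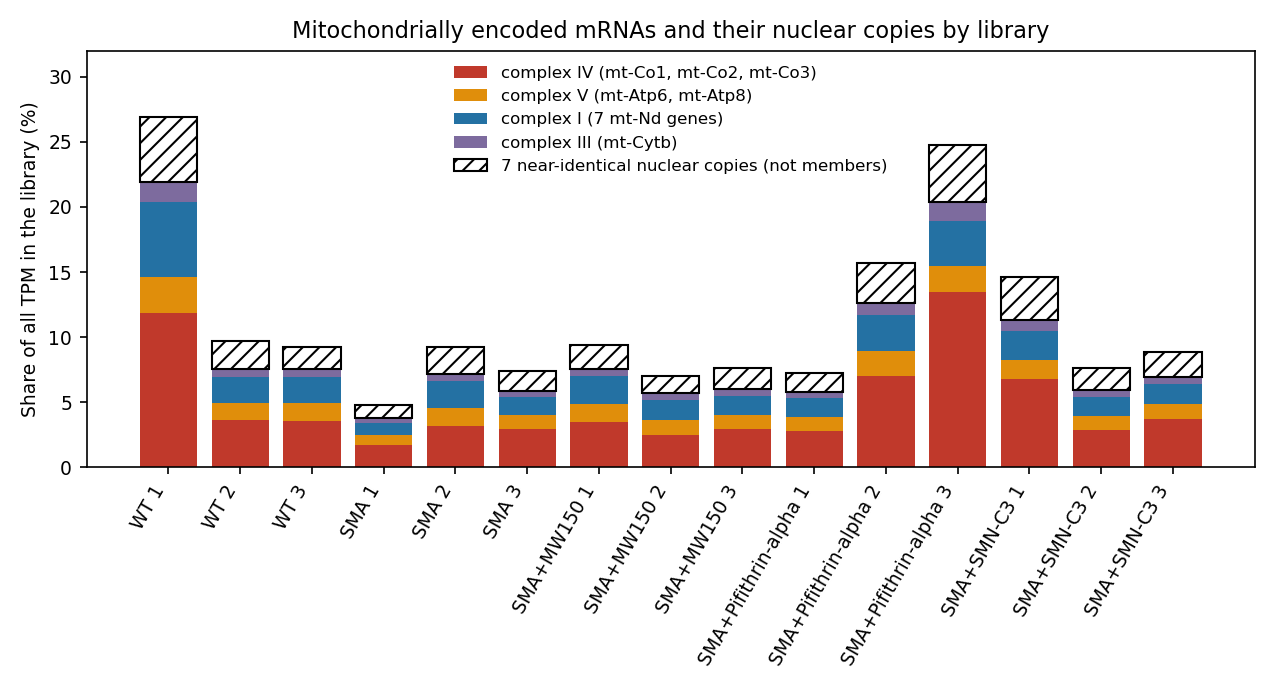
Share of all TPM in each library (vertical axis, percent) taken by the 13 mt- genes, stacked by the complex they encode, with the 7 near-identical nuclear copies hatched on top; bars are single libraries, named on the horizontal axis. The mt- part reaches 21.9% in WT 1 and 20.4% in SMA+Pifithrin-alpha 3, against 3.76% to 7.15% in the 3 SMA libraries.

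Within the mt- sum the 2 most abundant genes, mt-Co3 and mt-Co2, kept their places in all 15 libraries, while others changed places from library to library. By median share over the 15 libraries the 13 genes ranked mt-Co3, mt-Co2, mt-Atp6, mt-Nd1, mt-Cytb, mt-Co1, mt-Nd4, mt-Atp8, mt-Nd6, mt-Nd2, mt-Nd4l, mt-Nd5 and mt-Nd3. mt-Co3 was above mt-Co2, mt-Co2 above mt-Atp6, mt-Co1 above mt-Nd4, mt-Nd2 above mt-Nd4l and mt-Nd5 above mt-Nd3 in 15 of 15 libraries. mt-Atp6 was above mt-Nd1, and mt-Nd1 above mt-Cytb, in 14 of 15. mt-Cytb was above mt-Co1 in 12 of 15, and the 3 exceptions were the 3 SMA+Pifithrin-alpha libraries. The middle of the order was not settled: mt-Nd4 exceeded mt-Atp8 in 8 libraries, mt-Atp8 exceeded mt-Nd6 in 10, mt-Nd6 exceeded mt-Nd2 in 10, and mt-Nd4l exceeded mt-Nd5 in 6. This order depended on how reads were shared with the nuclear copies. When each copy was added to its mt- gene, as described below, mt-Co1 took 10.6% to 14% of the new sum. It was then above mt-Nd1 (6.16% to 10.3%) and mt-Cytb (6.38% to 8.14%) in every library. mt-Nd3 was then above mt-Nd5 in every library, and its median share of 4.98% was above that of mt-Nd4 (3.48%). The highest TPM of a gene over the 15 libraries was 3.37 (mt-Nd4l) to 11.1 (mt-Nd3) times its lowest. The highest share within the mt- sum was only 1.25 (mt-Co2) to 2.99 (mt-Nd4l) times the lowest.

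**Figure D2:**
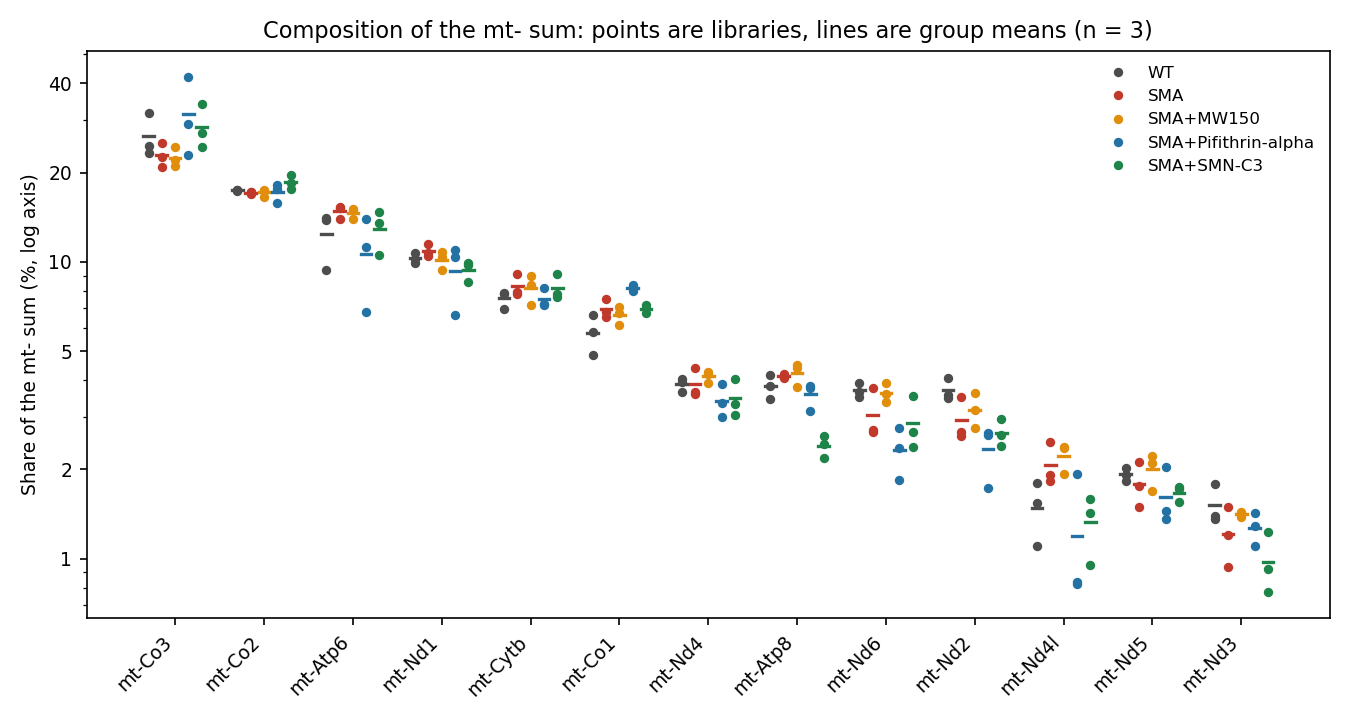
Share of each mt- gene within the mt- sum of its library (vertical axis, percent, log scale), with genes in order of median share; points are libraries and lines are means of 3. mt-Co3 and mt-Co2 lead in every library, other genes change places, and the mt-Atp8 shares of SMA+SMN-C3 (2.19% to 2.58%) lie below those of the other 12 libraries.

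Loss of mouse Smn was addressed by SMA against WT. In TPM all 13 genes were lower on average in SMA, and they stayed on that side with median-of-ratios scaling, which aligns libraries on their median gene. The changes ran from a log2 difference of -1.34 for mt-Nd2, a subunit of complex I, to -0.50 for mt-Nd4l, another. All log2 differences are on the log2(value + 1) scale, which makes almost no difference at these levels. The median of the 13 was -0.99, beside 0.24 over the 15425 genes tested (at least 1 TPM in at least 3 libraries). In 5 of the 13 genes, mt-Co2, mt-Co3, mt-Cytb, mt-Nd1 and mt-Nd2, every SMA library was below every WT library, which held for 3.81% of all genes tested. None of the 13 passed the limma test at an adjusted p under 0.05, where 0.363% of all genes did; 10 had an unadjusted p under 0.05 and adjusted p-values ran from 0.26 to 0.48. The share of all genes with an unadjusted p under 0.05 in the limma test was not counted, here or in the comparisons below. The 10 became 0 without WT 1, 0 without SMA 1 and 3 without SMA 3. Without WT 1 all 13 remained lower, with a median of -0.51, and without SMA 1 with a median of -0.69. The sum of the 9 microglia markers moved the other way, at 83.9 to 130 TPM in SMA against 19.4 to 47.4 TPM in WT. So did the sum of the interneuron markers, at 11 to 17.7 against 3.87 to 9.48 TPM. Taken singly, the microglia markers Aif1, P2ry12, Tmem119 and Itgam overlapped WT, and the other microglia markers lay above WT. All interneuron markers overlapped WT, and Pax2 was highest in WT 2 (0.281 TPM). The part of these markers in the result was not tested.

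Shares add up to the whole mt- sum in each library, so a rise in some genes must be met by a fall in others. Mixed directions in this and the following share comparisons are therefore no finding by themselves. Median-of-ratios scaling, applied after the shares were formed, no longer leaves them as parts of the mt- sum. The scaled splits given here and below therefore do not test the share directions. Of the 13, 6 were higher and 7 lower in SMA than in WT, a split that became 3 and 10 with median-of-ratios scaling, and the median was -0.00 beside 0.16 over all genes. No gene was called, against 0.331% of all genes tested, and none had an unadjusted p under 0.05 (limma). mt-Nd4l was the 1 member with every SMA library above every WT library (12.5% of all genes tested), and mt-Co2 the 1 with every SMA library below (4.69%), although the latter differed by a log2 of only -0.03.

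The treatments were each compared with the same 3 SMA libraries, so their results are not independent of each other. With MW150 all 13 genes were higher in TPM, also with median-of-ratios scaling, with a median log2 difference of 0.26 beside 0.06 over all genes. SMA 1, the library with the lowest mt- sum, carried this: without it the split was 7 higher and 6 lower. As shares, 8 were higher and 5 lower (5 and 8 with median-of-ratios scaling), with a median of 0.03 beside 0.07. In neither measure was a member called by limma, where 0.00648% of all genes were, and none had an unadjusted p under 0.05. Every MW150 share range overlapped that of SMA.

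With Pifithrin-alpha all 13 genes were higher in TPM, under median-of-ratios scaling too, at a median of 0.88 beside -0.22 over all genes. The log2 difference was 1.49 (SE 0.59) for mt-Co3 and 1.32 (SE 0.43) for mt-Co1, both core subunits of complex IV. mt-Co1 was the 1 member whose TPM ranges did not overlap (5.53% of all genes tested). With its nuclear copy added, as described below, the mt-Co1 ranges overlapped. No member was called by limma, as against 0.00648% of all genes; 6 had an unadjusted p under 0.05 and adjusted p-values ran from 0.46 to 0.82. Without SMA+Pifithrin-alpha 3 the median was 0.55, and 1 of the 13, mt-Nd4l, turned slightly lower. Without SMA 1 it was 0.60, and again 1 of the 13 was lower. Microglia markers summed to 24.8 to 70.9 TPM in SMA+Pifithrin-alpha and interneuron markers to 2.18 to 7.30 TPM. Both sums were below all 3 SMA libraries (83.9 to 130 and 11 to 17.7 TPM). Taken singly, the microglia markers P2ry12, Tmem119, Csf1r and C1qb overlapped SMA, as did the interneuron markers Gad2, Slc6a5, Pax2 and Lhx5. The other markers of these 2 sets lay below SMA. The part of these markers in the result was not tested. As shares, 4 genes were higher and 9 lower (5 and 8 with median-of-ratios scaling), with a median of -0.19 beside -0.13. No member was called (0.00648% of all genes), and 2 had an unadjusted p under 0.05, mt-Atp6 and mt-Nd4l. The share of mt-Co1 was higher in every treated library (7.65% of all genes tested) and that of mt-Atp8 lower in every one (8.72%).

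With SMN-C3, 11 genes were higher in TPM and 2, mt-Atp8 and mt-Nd4l, were lower, at a median of 0.38 beside -0.23 over all genes. Under median-of-ratios scaling mt-Nd4l joined the higher ones. The median was 0.09 without SMA 1 (10 higher, 3 lower) and 0.18 without SMA+SMN-C3 1. Microglia markers summed to 41.3 to 57.6 TPM and interneuron markers to 4.12 to 8.09 TPM, both sums below all SMA libraries. Taken singly, the microglia markers Tmem119 and C1qb overlapped SMA, as did the interneuron markers Gad1, Gad2, Slc6a5 and Pax2. The other markers of these sets lay below SMA. In SMA+SMN-C3, 12901 to 13069 genes reached 1 TPM, against 13539 to 14916 in SMA. The part of these values in the result was not tested. No member was called by limma, against 0.0648% of all genes, and none had an unadjusted p under 0.05. As shares, 3 were higher and 10 lower, but 10 higher and 3 lower with median-of-ratios scaling, and the median was -0.13 beside -0.20. No member was called (0.0648% of all genes), and 2 had an unadjusted p under 0.05, mt-Atp8 and mt-Nd4l. The shares of mt-Atp8, mt-Nd1 and mt-Nd4l were lower in every treated library than in every SMA library, 3 of 13 members beside 16.6% of all genes tested. The share of mt-Co2 was higher in every one (3.13%). The F test of limma across the 5 groups called no member in TPM or as a share, where it called 0.22% of all genes on each scale. It gave 1 member an unadjusted p under 0.05 in TPM and 4 as a share.

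**Figure D3:**
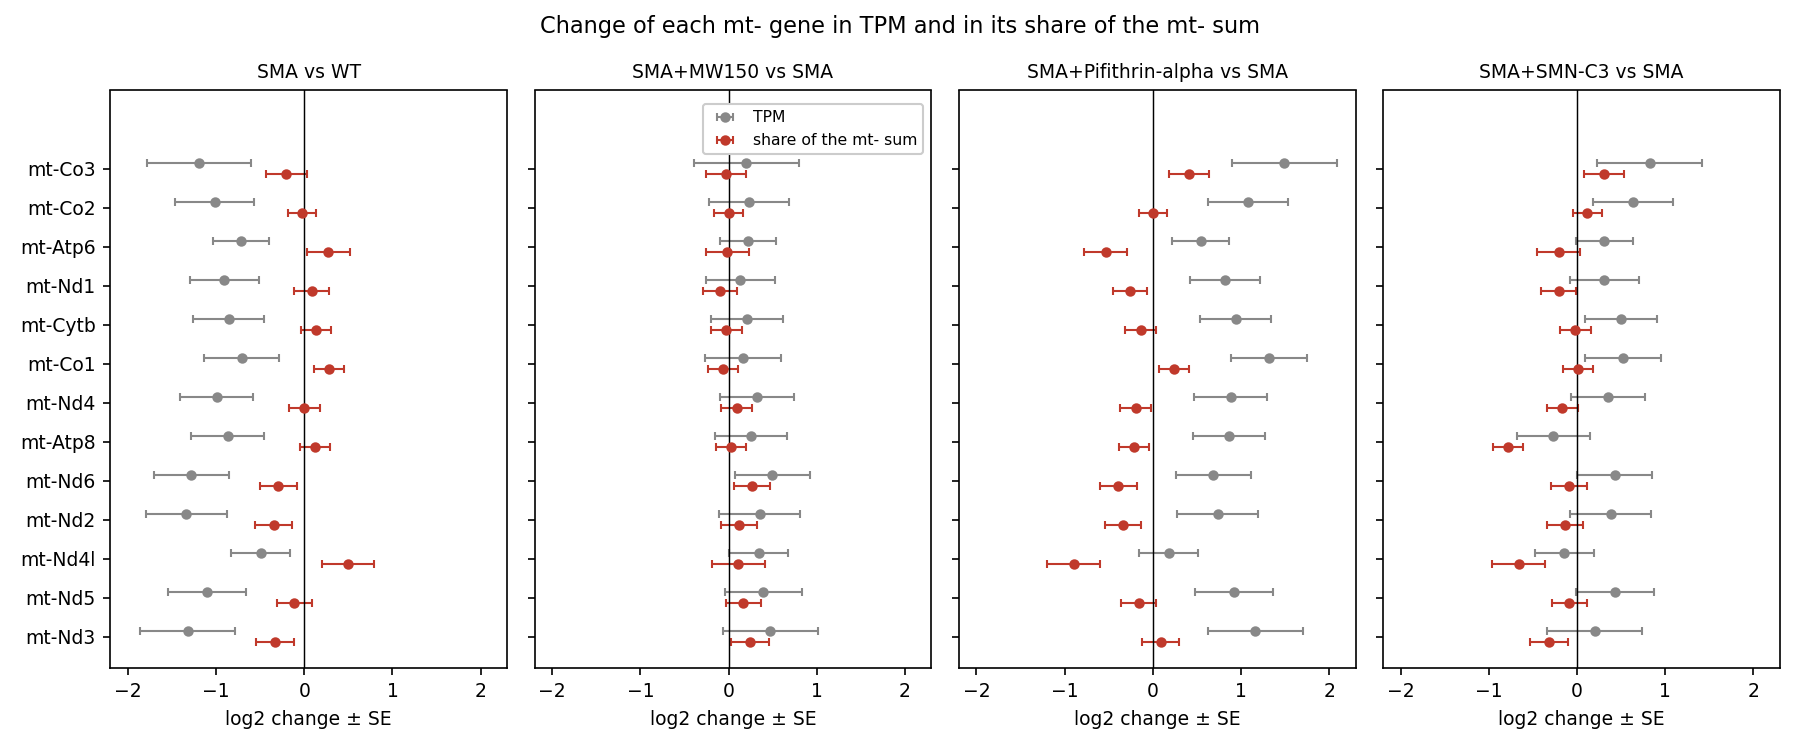
Log2 difference ± SE of each mt- gene (rows) in the 4 comparisons (panels), in TPM (grey) and as a share of the mt- sum (red), from limma on 15 libraries. The TPM differences of a comparison lie mostly on 1 side of 0, at a median of -0.99 for SMA against WT. The shares, which add up to a fixed whole in each library, lie on both sides of 0.

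Complex IV, cytochrome c oxidase, passes electrons to oxygen. Its 3 mitochondrially encoded subunits are the most abundant group, at 43.7% to 65.9% of the mt- sum. mt-Co3 (bases 8607 to 9390 of chromosome M) encodes a core subunit that stabilises the enzyme. Its share was 31.7%, 24.6% and 23.3% in WT, 22.6%, 20.9% and 25.2% in SMA, and 22.0%, 21% and 24.3% in SMA+MW150. It was 22.9%, 29.2% and 42.1% in SMA+Pifithrin-alpha and 34.1%, 24.4% and 27.2% in SMA+SMN-C3. The 4 highest shares of mt-Co3 were in SMA+Pifithrin-alpha 3, SMA+SMN-C3 1, WT 1 and SMA+Pifithrin-alpha 2, which are also the 4 libraries with the highest mt- sum. Its log2 share differed by 0.41 (SE 0.23, adjusted p = 0.48) between SMA+Pifithrin-alpha and SMA and by 0.31 (SE 0.23, adjusted p = 0.78) between SMA+SMN-C3 and SMA, and all groups overlapped in both. These fell to 0.18 without SMA+Pifithrin-alpha 3 and to 0.17 without SMA+SMN-C3 1.

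mt-Co2 (bases 7013 to 7696), the subunit that accepts electrons from cytochrome c, had the steadiest share of the 13. Its lowest value was 15.8%, in SMA+Pifithrin-alpha 3, and its highest 19.7%, in SMA+SMN-C3 3. The remaining 13 libraries held 16.6% to 18.5%. In WT it was 17.4%, 17.4% and 17.5%, and in SMA 17.2%, 17.0% and 17.2%, so the ranges missed each other by a small margin. No 31-base word of mt-Co2 was free of a match elsewhere in the annotated transcripts of the table, and its level rests on how such reads were shared out.

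mt-Co1 (bases 5328 to 6872) encodes the catalytic subunit that holds the site of oxygen reduction. Its share was 4.84%, 5.80% and 6.64% in WT, 6.79%, 6.54% and 7.51% in SMA, and 7.06%, 6.13% and 6.71% in SMA+MW150. It was 8.37%, 8.21% and 8.01% in SMA+Pifithrin-alpha and 7.18%, 6.73% and 7.0% in SMA+SMN-C3. The 3 Pifithrin-alpha libraries were above all other 12, at a log2 difference from SMA of 0.24 (SE 0.17, adjusted p = 0.55). Its TPM followed the mt- sum within that group, at 4832, 10367 and 16353, against 2551, 4676 and 4422 in SMA. Of its 31-base words, 36.1% are its own. The ratio of Gm29216 to mt-Co1 TPM was 2.49 to 2.63 in SMA+Pifithrin-alpha and at least 2.73 in the other 12 libraries. With the copy added, as described below, mt-Co1 was at 8659, 19063 and 29691 TPM in SMA+Pifithrin-alpha. In SMA it was then at 5092, 10199 and 8259 TPM, so the ranges overlapped. The part of the copy in the result was not tested.

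Complex V, the ATP synthase, has 2 mitochondrially encoded subunits, both in the membrane part through which protons flow. mt-Atp6 lines the proton channel, and mt-Atp8 is a small subunit of the membrane stalk. In the common transcript they are read from overlapping frames, the 43 bases shown above. Together they made up 9.93% to 19.6% of the mt- sum. The share of mt-Atp6 was 9.42%, 13.8% and 14% in WT, 15.3%, 15.2% and 13.9% in SMA, and 14%, 15.1% and 14.9% in SMA+MW150. It was 14%, 11.2% and 6.77% in SMA+Pifithrin-alpha and 10.6%, 14.7% and 13.5% in SMA+SMN-C3. The 4 libraries with the highest mt-Co3 shares had the 4 lowest mt-Atp6 shares, although the 2 genes meet at 1 base. The log2 share of mt-Atp6 differed by -0.54 (SE 0.25, adjusted p = 0.45) between SMA+Pifithrin-alpha and SMA, and by -0.24 without SMA+Pifithrin-alpha 3.

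mt-Atp8 showed the clearest difference between groups within the mt- sum. At 204 bases it is also the shortest member, and how the length correction of TPM acts on it was not tested. Its share was 3.44%, 3.82% and 4.16% in WT, 4.07%, 4.13% and 4.2% in SMA, 4.38%, 4.50% and 3.78% in SMA+MW150, and 3.81%, 3.77% and 3.15% in SMA+Pifithrin-alpha. With SMN-C3 it was 2.19%, 2.43% and 2.58%, below each of the other 12 libraries. The log2 difference from SMA was -0.79 (SE 0.17, 95% interval -1.14 to -0.43), with an unadjusted p of 0.00023 and an adjusted p of 0.13 by limma, so it was not called. The adjusted p ranged from 0.0043 to 0.63 over 16 alternative settings, and 2 of them called it. At 0.0043 it was called without WT 1 and SMA+Pifithrin-alpha 3, which belong to neither group and enter only the estimate of the spread, and at 0.0052 with library weights.

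The TPM of mt-Atp8 gave no such separation. It was 2478, 1442 and 1788 in SMA+SMN-C3 and 1530, 2951 and 2472 in SMA, a log2 difference of -0.27 (SE 0.41, adjusted p = 0.90). The ratio of mt-Atp8 to mt-Atp6 TPM, 2 messengers that share a precursor, was 0.207, 0.165 and 0.192 in SMA+SMN-C3. The WT range was 0.276 to 0.365, that of SMA 0.267 to 0.301, that of SMA+MW150 0.253 to 0.314 and that of SMA+Pifithrin-alpha 0.273 to 0.466. The lowest ratio outside SMA+SMN-C3 was thus 0.253. mt-Atp6 has a nuclear copy of full identity, Gm10925, and 0.461% of its 31-base words are its own, against 92.5% for mt-Atp8.

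**Figure D4:**
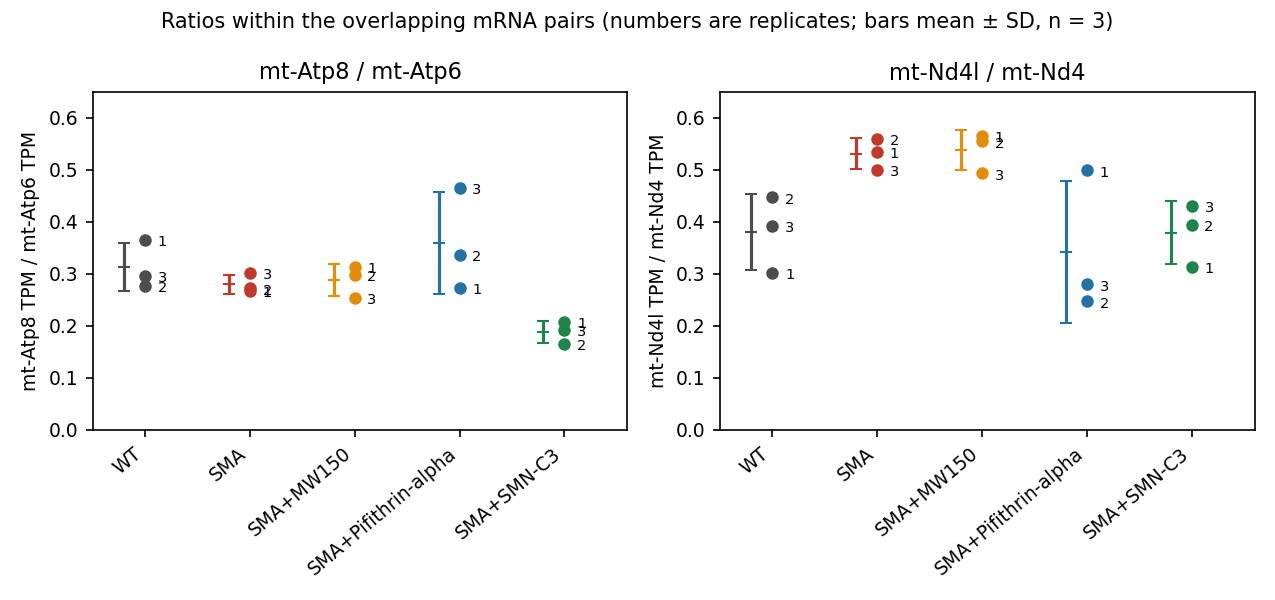
Ratio of TPM within the 2 pairs of overlapping messengers (vertical axes) in each library, by group; numbers are replicates and bars show mean ± SD of 3 libraries. The mt-Atp8 to mt-Atp6 ratio of SMA+SMN-C3, 0.165 to 0.207, is below that of every other library, and the mt-Nd4l to mt-Nd4 ratio is 0.499 to 0.559 in SMA against 0.302 to 0.447 in WT.

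Complex I, NADH dehydrogenase, takes electrons from NADH and pumps protons. Its 7 mitochondrially encoded subunits form the membrane arm and made up 16.9% to 28.5% of the mt- sum. mt-Nd1 (bases 2751 to 3707), next to the site where ubiquinone binds, was the most abundant of them. It is also the only member all of whose 31-base words occur in no other gene of the table. Its share was 9.90%, 10.2% and 10.7% in WT, 11.5%, 10.7% and 10.5% in SMA, and 10.4%, 10.8% and 9.38% in SMA+MW150. It was 10.9%, 10.4% and 6.62% in SMA+Pifithrin-alpha and 8.55%, 9.95% and 9.78% in SMA+SMN-C3. SMA+Pifithrin-alpha 3 alone fell below 8%, a value that stands apart from the other 14. The 3 SMN-C3 libraries were below the 3 SMA libraries, at a log2 difference of -0.21 (SE 0.20, adjusted p = 0.84).

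mt-Nd4l and mt-Nd4 encode subunits of the proton-pumping arm. At 297 bases mt-Nd4l is the shortest member after mt-Atp8, and how the length correction of TPM acts on it was not tested. The share of mt-Nd4l varied most of all 13 genes. It was 1.11%, 1.80% and 1.54% in WT, 1.91%, 2.46% and 1.83% in SMA, and 2.38%, 2.35% and 1.93% in SMA+MW150. It was 1.93%, 0.823% and 0.838% in SMA+Pifithrin-alpha and 0.954%, 1.59% and 1.43% in SMA+SMN-C3. SMA was above WT in all libraries (log2 difference 0.50, SE 0.30, adjusted p = 0.45) and above SMA+SMN-C3 in all libraries (SMN-C3 against SMA, -0.66, SE 0.30, adjusted p = 0.60). For SMA+Pifithrin-alpha against SMA the log2 difference was -0.90 (SE 0.30, adjusted p = 0.45), with 1 of 3 libraries inside the SMA range.

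The same pattern stood in the ratio of mt-Nd4l to mt-Nd4 TPM, which spanned 0.302 to 0.447 in WT and 0.499 to 0.559 in SMA. With MW150 it spanned 0.493 to 0.566, with Pifithrin-alpha 0.247 to 0.499 and with SMN-C3 0.313 to 0.431. The ratio was thus higher in every SMA library than in every WT and every SMN-C3 library. SMA 3 and SMA+Pifithrin-alpha 1 were level at 0.499. The 4 libraries with the highest mt- sum had the 4 lowest shares of mt-Nd4l, and 1.12% of its 31-base words are its own. mt-Nd4 itself ranged from 3.00% to 4.41% of the mt- sum, with every group overlapping SMA.

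The remaining subunits of complex I were less abundant. mt-Nd2 (bases 3914 to 4951), in the proton-pumping arm, had shares of 4.07%, 3.48% and 3.55% in WT and 2.59%, 3.51% and 2.68% in SMA, a log2 difference of -0.35 (SE 0.21, adjusted p = 0.45). mt-Nd5 (bases 11742 to 13565), the outermost pump subunit, ranged from 1.36% to 2.21%. mt-Nd6, the 1 gene read from the opposite strand, ranged from 1.85% to 3.92%. Its TPM was 1.28 to 2.14 times that of mt-Nd5, its overlapping neighbour, and exceeded it in all 15 libraries. The sources used here do not say whether the libraries kept the strand of the RNA. Without strand, reads of mt-Nd6 and RNA from the opposite strand at the same place cannot be told apart.

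Without its copy, mt-Nd3 (bases 9459 to 9806), a small subunit near the junction of the arms of complex I, had the lowest median share. It was 1.79%, 1.39% and 1.36% in WT, 0.940%, 1.49% and 1.21% in SMA, and 1.38%, 1.44% and 1.41% in SMA+MW150. It was 1.1%, 1.29% and 1.43% in SMA+Pifithrin-alpha and 0.772%, 1.23% and 0.920% in SMA+SMN-C3. All groups overlapped SMA.

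Complex III hands electrons from ubiquinol to cytochrome c, and mt-Cytb (bases 14145 to 15288), its cytochrome b, is the only mitochondrially encoded subunit. Its share was 6.93%, 7.88% and 7.83% in WT, 9.12%, 7.81% and 7.90% in SMA, and 7.16%, 8.97% and 8.34% in SMA+MW150. It was 8.15%, 7.19% and 7.21% in SMA+Pifithrin-alpha and 7.80%, 9.08% and 7.62% in SMA+SMN-C3. The groups overlapped throughout, and the highest share was 1.32 times the lowest. In TPM mt-Cytb was 15183, 5945 and 5888 in WT and 3428, 5585 and 4650 in SMA, without overlap (log2 difference -0.86, SE 0.41, adjusted p = 0.37).

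The near-identical nuclear copies carried part of the signal of these sequences. Together the 7 copies took 0.999% to 4.98% of all TPM, nearly all of it at Gm29216 and Gm28438. In WT the TPM of Gm29216 was 45501, 17492 and 14146, and in SMA 7979, 17345 and 12050. With MW150 it was 15931, 11088 and 13632, with Pifithrin-alpha 12017, 27307 and 41883, and with SMN-C3 29730, 13787 and 16039. In every library it exceeded mt-Co1 in TPM, by 2.49 to 4.29 times. Gm29216 is 492 bases long and mt-Co1 1545. As TPM times annotated length, Gm29216 held 44.2% to 57.7% of the total of the pair. Gm28438 was at 1748 to 4296 TPM, and exceeded mt-Nd3 in all libraries except SMA+Pifithrin-alpha 3, where it was at 0.600 times that gene. The highest ratio was 5.29, in SMA 1. Which locus these reads came from was not tested.

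**Figure D5:**
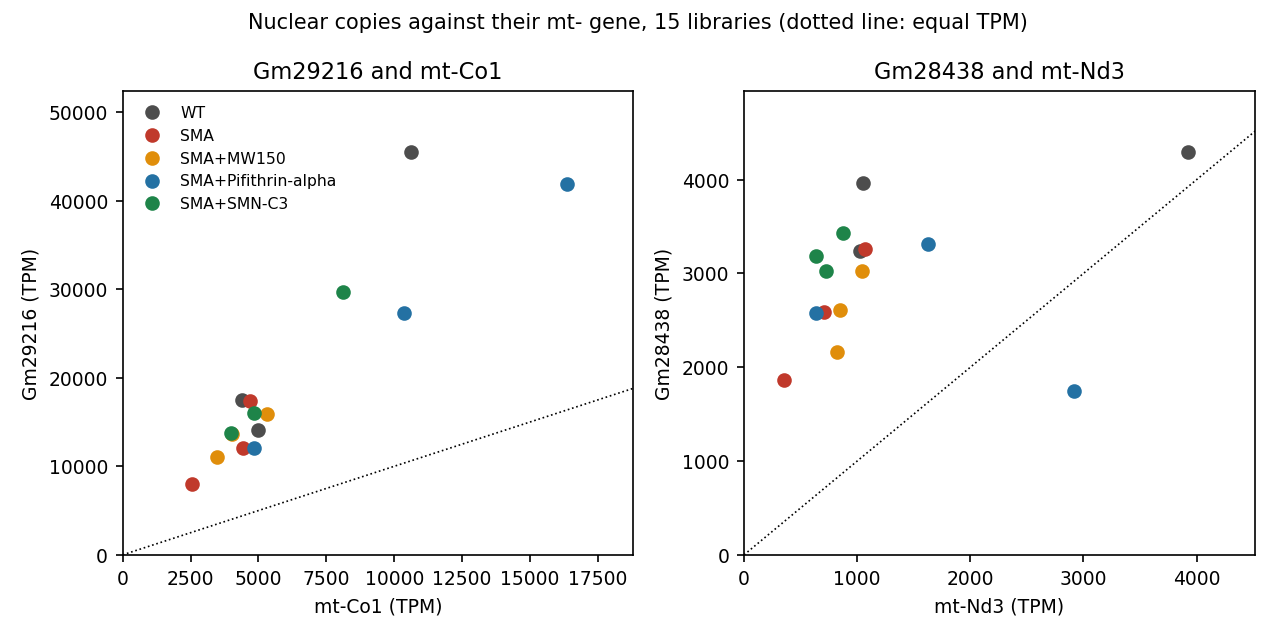
TPM of the nuclear copies Gm29216 and Gm28438 (vertical axes) against the mt- gene they match, mt-Co1 and mt-Nd3 (horizontal axes), in 15 libraries; the dotted line marks equal TPM. Gm29216 lies above the line in all 15 libraries, and Gm28438 in all but SMA+Pifithrin-alpha 3.

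When each copy was added to its mt- gene by TPM times annotated length, an alternative chosen after seeing the data, members and copies were re-expressed as shares of the new sum. mt-Co1 then took 10.6% to 14% in place of 4.84% to 8.37%. Its share was 10.6% to 11.7% in WT, 12.1% to 12.7% in SMA and 13.5% to 13.8% in SMA+Pifithrin-alpha. SMA+SMN-C3, at 12.6% to 14%, now reached above the Pifithrin-alpha libraries. mt-Nd3 took 2.12% to 5.86%, and its log2 share difference turned from -0.33 to 0.15 between SMA and WT, from 0.25 to -0.08 between SMA+MW150 and SMA, and from 0.09 to -0.63 between SMA+Pifithrin-alpha and SMA. No member was called in any comparison. Counted as a plain sum, members and copies took 4.76% (SMA 1) to 26.9% (WT 1) of all TPM.

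Nuclear genes for the expression of mitochondrial DNA were read from a list of 55 genes for its transcription, replication, RNA processing, stability and nuclear activation, of which 54 were found under their listed symbol and tested. Levels were taken per 1000000 of the sum over all genes that are not mt-. None of the 54 was called by limma in any comparison or across the 5 groups, beside 0.331%, 0.00648%, 0.00648% and 0.0648% of all genes in the 4 comparisons and 0.22% across the groups. A count of 0 is near these shares. The number with an unadjusted p under 0.05 by limma was 7 for SMA against WT, 1 for MW150, 7 for Pifithrin-alpha, 4 for SMN-C3 and 7 for the 5 groups. The share of all genes at that mark was not counted, so these numbers cannot be read as a result about the list. The split of higher and lower genes was 33 and 21, 36 and 18, 30 and 24, and 22 and 32 in the 4 comparisons, and the median log2 differences were 0.16, 0.12, 0.04 and -0.07 beside 0.16, 0.07, -0.13 and -0.20 over all genes.

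The 4 genes of the list with the smallest p across the 5 groups are given by value. Top1mt, the topoisomerase of mitochondrial DNA, was at 6.46, 10.5 and 10.7 in WT and 26.9, 13.5 and 17.1 in SMA. With MW150 it was at 15.9 to 20.4, with Pifithrin-alpha at 7.85 to 16.3 and with SMN-C3 at 7.31 to 9.44. SMA lay above WT (log2 difference 0.95, SE 0.33, adjusted p = 0.29) and above SMA+SMN-C3 (SMN-C3 against SMA, -1.02, SE 0.33, adjusted p = 0.40) in every library. Such separations were common on this scale: 12.5% of all genes had SMA above WT in every library, and 16.6% had SMN-C3 below SMA. Trit1, which modifies cytosolic and mitochondrial transfer RNAs, was at 1.32, 4.13 and 6.00 in WT, 10.6, 11.4 and 9.97 in SMA and 3.18, 4.01 and 6.32 in SMA+SMN-C3. With MW150 it was at 7.25 to 10.8 and with Pifithrin-alpha at 4.30 to 13.2. Its log2 difference was 1.41 (SE 0.44, adjusted p = 0.23) for SMA against WT and -1.12 (SE 0.44, adjusted p = 0.51) for SMN-C3 against SMA.

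Ppargc1a, a coactivator of mitochondrial biogenesis, was at 9.15, 8.06 and 8.20 in WT, 9.70, 12.7 and 11.4 in SMA and 7.28, 5.71 and 6.37 in SMA+SMN-C3. With MW150 it was at 15.1, 11.5 and 21.7, and with Pifithrin-alpha at 15.6, 11.3 and 8.19. SMN-C3 lay below SMA in every library (-0.72, SE 0.31, adjusted p = 0.58 by limma), as it did for 16.6% of all genes. Pnpt1, an RNA-degrading enzyme of mitochondria, was at 16.4, 14.6 and 18.3 in WT, 12.8, 8.21 and 9.84 in SMA and 18.1, 18.8 and 40.6 in SMA+Pifithrin-alpha. With MW150 it was at 12.4, 11.4 and 12.9, and with SMN-C3 at 16.8, 11.9 and 13.6. SMA lay below WT in every library (-0.64, SE 0.32, adjusted p = 0.39; 4.69% of all genes) and below Pifithrin-alpha in every library (Pifithrin-alpha against SMA, 1.17, SE 0.32, adjusted p = 0.45; 7.65% of all genes). Its highest value was in SMA+Pifithrin-alpha 3, the library with the highest mt- sum after WT 1. In WT 1 it was at 16.4, between the other WT libraries.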

How the data were processed

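Transcript levels came from 15 libraries of laser-captured motor neurons, 3 per group, with groups taken from the labels. The authors deposited TPM values per gene and per transcript. The submitters' processing notes name kallisto 0.44.0, DESeq2, GRCm38.p6 and mm10, with no role for each. The index and annotation release are not given in the sources used here. 116728 of 118489 transcripts (98.5%) matched GENCODE M21, from which coordinates and sequences were taken. Each library sums to 1000000 TPM, so depth is unknown and no interval for counting error is given. Kallisto shares a read that fits several transcripts among them by a model, which bears on members with nuclear copies. Copies were found with blastn 2.17.0, and words of 31 bases were counted over the transcripts of the table.

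The 15425 genes that reached 1 TPM in at least 3 libraries were fitted with limma 3.58.1 in R 4.3.3 (a mean per group, trended variance, two-sided tests) on log2(TPM + 1). A second fit used shares: mt- genes over the mt- sum and other genes over the sum of the rest, times 1000000, as log2(value + 1). A call needed a p under 0.05 after Benjamini-Hochberg adjustment over all genes tested. The code was tested on simulated data. The members and lists were chosen with earlier results of these data known. Named were all 13 members, the 4 regulators with the smallest F test p, any regulator called, and the copies. Alternatives covered the pseudocount, filters, scaling, the centring of shares, library weights, the samples fitted and single libraries left out.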

Additional observations from a re-analysis of the deposited data

How the results depend on the processing

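Counts of members and regulators called, 0 in each comparison and on each scale, stayed at 0 in all alternatives except the following. With limma's library weights, 12 members were called in TPM for Pifithrin-alpha against SMA (10.2% of all genes), 10 in TPM across the 5 groups (20.9%) and 4 as shares across the 5 groups (15.7%). These weights also called 1 share for Pifithrin-alpha against SMA (mt-Nd4l, 7.62% of all genes) and 1 for SMN-C3 against SMA (mt-Atp8, 178 of 15425 genes). They called 5 of 54 regulators for Pifithrin-alpha against SMA, beside 7.62% of all genes. Across the 5 groups they called 10 of 54 regulators, beside 15.7% of all genes. The default weight estimate stopped before converging, so weights were estimated gene by gene. They gave SMA+Pifithrin-alpha 2 a weight of 5.71 and the other 2 libraries of its group 0.467 and 0.188. A minimum mean of 5 TPM called 1 share across the 5 groups (0.27% of all genes). Leaving out WT 1 and SMA+Pifithrin-alpha 3 together called 1 share for SMN-C3 against SMA (mt-Atp8; 0.849% of all genes) and 1 across the 5 groups (0.771%). Leaving out each replicate in turn gave 0 to 0 calls for every result; a group left with 2 libraries shares the pooled spread. Replicate numbers of the labels did not pair the libraries: deviations of same-numbered libraries correlated at -0.19 to 0.07, and the fit with the replicate number as a block called 0 members and 0 regulators. Among 780 alternative TPM differences of single members 15 changed sign and 12 were called; among 832 share differences 62 changed sign and 3 were called. Median-of-ratios scaling moved the median log2 difference of all genes in TPM from 0.24 to 0.04 (SMA against WT), 0.06 to -0.01 (MW150), -0.22 to -0.03 (Pifithrin-alpha) and -0.23 to -0.01 (SMN-C3); applied to shares it no longer leaves them as parts of the mt- sum. The alternative of dividing by the protein-coding genes alone was not run, since the 13 members are that set. Except where the setting itself leaves out libraries, the cause was not tested. TPM keeps no depth, so its limits on single values are unknown.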
